A study of Mus musculus with 8 samples.

Results

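The enzymes described here build, trim or sulphate sugar chains on proteins and lipids. They are the genes of a mouse CD4 T cell count table whose symbols start with St3gal, St6gal, St8sia, Galnt, Mgat, B3g, B4gal, Fut and a digit, Gcnt, Man1 or Man2, Chst or Ext. St6galnac1 and St6galnac2, neighbours on chromosome 11, were left out of the set and serve as the yardstick against which it is read. The rule found 71 genes among the 11354 in the table, and all 71 entered the test. The symbols also take in 9 mannosidases, which are hydrolases, and 6 sulphotransferases, so 15 of the 71 are not glycosyltransferases. The libraries came from CD4+ T cells that the labels give as Nlrp6-/- in 4 cases and as wild type in 4 cases. Every host, in both groups, was a RAG-/- mouse, an animal that makes no T or B cells of its own, and the strain background is given as Black6. Equal numbers of cells of either kind were transferred, per the design text, and the sources used here give neither ages nor times after transfer. The libraries are called KO 1, KO 2, KO 4 and KO 5 and WT 1, WT 2, WT 4 and WT 5 after label and host number. One label field names the host spleen as the source, while the extraction protocol and the design text name the colonic lamina propria, so the tissue is uncertain. Whether libraries with the same host number came from one mouse is not stated.

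Proteins in the secretory pathway receive N-glycans on asparagine and O-glycans on serine or threonine. Polypeptide GalNAc transferases start mucin-type O-glycans, Gcnt enzymes branch them, Mgat enzymes set the number of branches on N-glycans, and galactosyl-, fucosyl- and sialyltransferases finish the chains. On T cells these chains carry ligands for selectins, galectins and Siglecs and help to set activation thresholds and homing. St6galnac1 makes the sialyl-Tn structure, an O-linked GalNAc capped with sialic acid, and St6galnac2 adds sialic acid to the GalNAc of longer O-glycans.

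Levels are in CPM, counts divided by the effective library size and scaled to a common total. Log2 fold changes set the knock-out label over the wild-type label and come with their standard error, so a positive value means higher under the knock-out label. Nlrp6, the gene named in the labels, went against them, with 487, 329, 477 and 648 counts in the libraries labelled knock-out and 5, 3, 3 and 8 counts in those labelled wild type. Every direction here is therefore that of a label, not of a genotype. Total counts ranged from 35198192 to 40310721 per library. Of the 13 T cell identity genes measured, 2 fell (Zap70 and Cd247) and 0 rose, and their summed level was 9054 to 9512 CPM in the libraries labelled knock-out and 9232 to 10714 CPM in those labelled wild type. Markers of other cells were not evenly spread. Of 23 macrophage and monocyte genes, 20 rose and 0 fell, and they summed to 335, 563, 999 and 743 CPM in KO 1, KO 2, KO 4 and KO 5, against 124, 98.6, 75.3 and 94.6 CPM in WT 1, WT 2, WT 4 and WT 5 (two-sided exact permutation p = 0.0286, the smallest that the 70 assignments allow, and 0.0952 after adjustment over the marker lists). Likewise 7 of 9 dendritic cell genes and 5 of 6 neutrophil genes rose. The 2 CD8 T cell genes differed: Cd8a rose (log2 fold change 2.21), while Cd8b1 had -0.29 and was not called. None of the 1 B cell, 6 natural killer, 5 epithelial, 12 stromal and 2 red cell genes measured was called. In bulk RNA, fewer cells of a type and less RNA per cell cannot be told apart.

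The enzymes did not share the large rise of the locus pair. St6galnac1 stood at 159, 140, 127 and 153 CPM in the libraries labelled knock-out and at 11.04, 16.8, 8.63 and 8.38 CPM in those labelled wild type. St6galnac2 stood at 320, 327, 380 and 322 CPM in the libraries labelled knock-out and at 21.4, 27.1, 22.0 and 22.1 CPM in those labelled wild type. The log2 fold changes of the pair were 3.69 ± 0.21 and 3.87 ± 0.09 (edgeR quasi-likelihood test, adjusted p = 1.02e-05 and 3.09e-08). Among the 71 enzymes, that test called 7 at a Benjamini-Hochberg adjusted p below 0.05. This is 9.86% of them, against 10.0% of all genes, a share near the background and so not a result about the enzymes as a set. Their directions were mixed: 4 rose (5.63%, against 6.20% of all genes) and 3 fell (4.23%, against 3.84%). Those that rose were B3galt5, Mgat5, Galnt7 and Man2b1, and those that fell were St3gal3, Chst2 and Galnt6. The number called was 4 (5.63%) without KO 1, where 7.72% of all genes were called, and 4 (5.63%) without WT 1, where 7.08% were.

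The differences were small. Only B4galnt2 differed by 2-fold or more, and it was not called, so that 1.41% of the enzymes passed that size against 4.29% of all genes. The 95% interval of the difference lay within 2-fold of no difference for 64 of 71 enzymes (90.1%, against 90.8% of all genes). The highest upper bound of any enzyme, 2.71 on the log2 scale for B4galnt2, stayed below 3.22, the lower bound for St6galnac1. The median log2 fold change was 0.03 over the enzymes, against -0.003 over all genes, with 38 values above 0 and 33 below. The median absolute log2 fold change was larger for the enzymes, at 0.170 against 0.0894 for all genes. At an unadjusted p below 0.05 stood 25 of the 71 (35.2%, against 23.5% of all genes), and in 15 the libraries of the labels did not overlap (21.1%, against 16.0%). These shares exceed those of all genes, but no test of the set was made. The enzymes together took 0.443%, 0.440%, 0.447% and 0.439% of the counts in the libraries labelled knock-out and 0.454%, 0.448%, 0.444% and 0.446% in those labelled wild type.

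**Figure D1:**
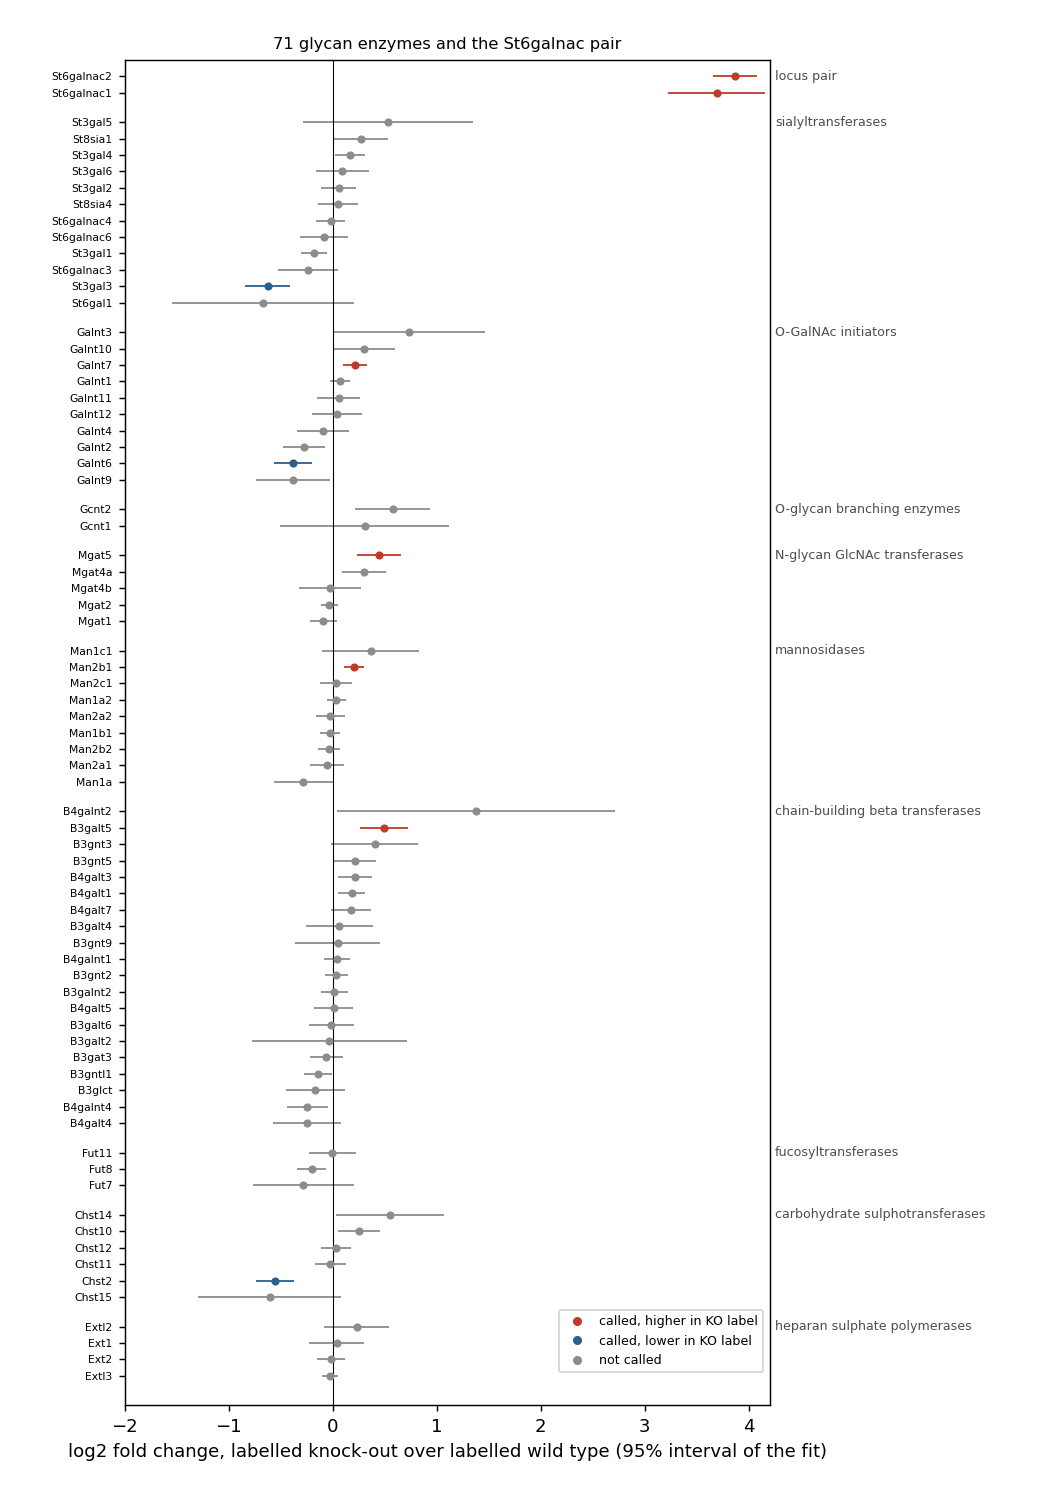
Log2 fold change (knock-out label over wild-type label) for the 71 enzymes, by class, with 95% intervals, beside St6galnac1 and St6galnac2. The 7 called enzymes lie between -0.63 and 0.49, and the locus pair lies at 3.69 and 3.87.

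**Figure D2:**
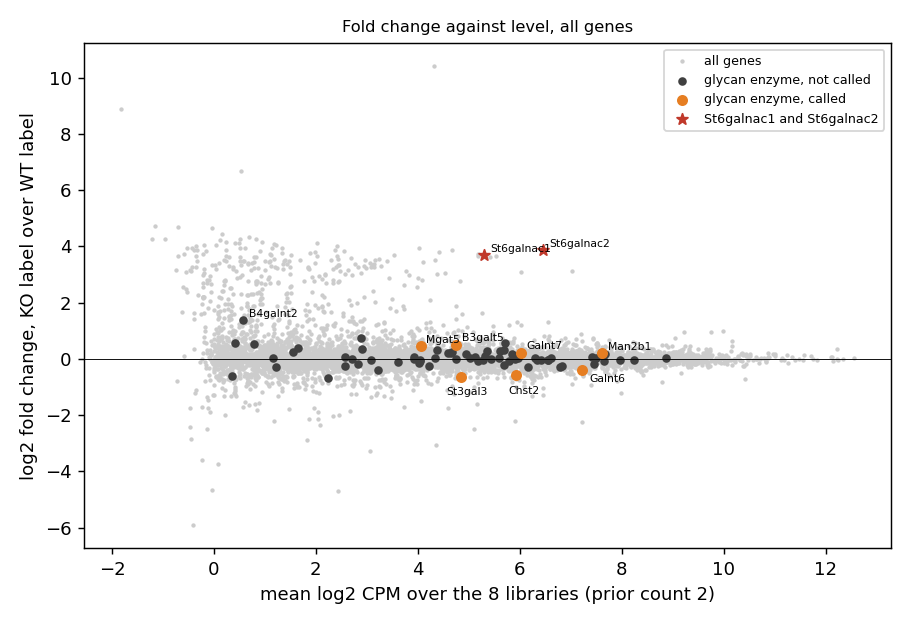
Log2 fold change (vertical) against mean level in CPM (horizontal, log2 scale) for all 11354 genes in grey, with the 71 enzymes and the locus pair marked. The enzymes gather around 0 over the whole range of levels, and the pair stands above them.

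Other tools and sets of libraries gave other counts against other backgrounds. DESeq2 called 13 of the 71 (18.3%, against 13.9% of all genes), 7 higher and 6 lower. limma-voom called 10 (14.1%, against 12.2%), 5 in each direction. A code in the sample descriptions reads 7 for KO 1, KO 2 and all libraries labelled wild type and 8 for KO 4 and KO 5, and what it stands for is not stated. With that code as a term, 3 enzymes were called (4.23%, against 6.56%), namely St3gal3, Chst2 and Galnt6. Without KO 4 and KO 5, which carry the code 8 and the most macrophage transcripts, 4 were called (5.63%, against 8.01%), namely B3galt5, St3gal3, Chst2 and Galnt6. Without KO 2 and KO 4, 4 were also called (5.63%, against 7.27%), with St3gal3, Chst2 and Galnt6 again lower and B3gnt5 higher. The 3 enzymes that fell thus kept their calls in each of these fits, and the signs of all 7 called enzymes held in every alternative run.

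Sialyltransferases other than the locus pair numbered 12, of which 1 fell, 0 rose and 11 were not called. The gene that fell was St3gal3 (chr4:117932152-118134972, GRCm38), which adds alpha-2,3-linked sialic acid to galactose at the ends of lactosamine chains. Its level was 20.4, 25.4, 24.8 and 21.8 CPM in the libraries labelled knock-out and 38.5, 34.3, 38.9 and 30.8 CPM in those labelled wild type. Every library labelled knock-out was below every library labelled wild type. The log2 fold change was -0.63 ± 0.10 (edgeR adjusted p = 0.00257), and it stayed between -0.76 and -0.57 with a call in all 18 alternatives run. This is the opposite direction to the locus pair. St3gal1, which caps core 1 O-glycans and so works on the same class of chains as the pair, was the sialyltransferase member with the highest level per kilobase of gene length. It stood at 165, 172, 156 and 164 CPM in the libraries labelled knock-out and at 201, 184, 188 and 169 CPM in those labelled wild type, groups that overlap only through KO 2 and WT 5. Its log2 fold change of -0.18 ± 0.06 did not pass the edgeR test (adjusted p = 0.0847).

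Of the other sialyltransferases, St3gal4, which also sialylates lactosamine ends, averaged 61.1 ± 4.51 CPM in the libraries labelled knock-out and 54.5 ± 3.15 CPM in those labelled wild type (SD, n = 4 each). St8sia1, the GD3 ganglioside synthase, averaged 54.0 ± 5.18 CPM and 44.7 ± 7.36 CPM under the same labels. Neither passed the edgeR test (adjusted p = 0.155 and 0.192). The closest relatives of the pair among the members are St6galnac3, St6galnac4 and St6galnac6, which add sialic acid to the GalNAc of already sialylated chains. Their log2 fold changes were -0.24 ± 0.13, -0.02 ± 0.06 and -0.08 ± 0.10, with adjusted p of 0.320, 0.889 and 0.703 in the edgeR test. The 95% intervals of these differences ran from -0.53 to 0.05, from -0.16 to 0.12 and from -0.31 to 0.15.

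The mix of sialyltransferase transcripts therefore differed mainly through the locus pair. On a per-length scale (CPM per kilobase of the gene length in the table), the pair summed to 219 ± 9.72 in the libraries labelled knock-out and 15.5 ± 2.68 in those labelled wild type (SD, n = 4 each). The 12 other genes summed to 126 ± 3.37 and 129.8 ± 2.48 under the same labels, a difference of about the size of the spread between libraries. The pair made up 63.5 ± 0.438% of the sialyltransferase sum in the libraries labelled knock-out and 10.6 ± 1.56% in those labelled wild type. Within the 12, St3gal1, St3gal4 and St3gal6 were the 3 highest per kilobase, with means over all 8 libraries of 29.9, 28.5 and 16.9 CPM per kilobase.

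**Figure D3:**
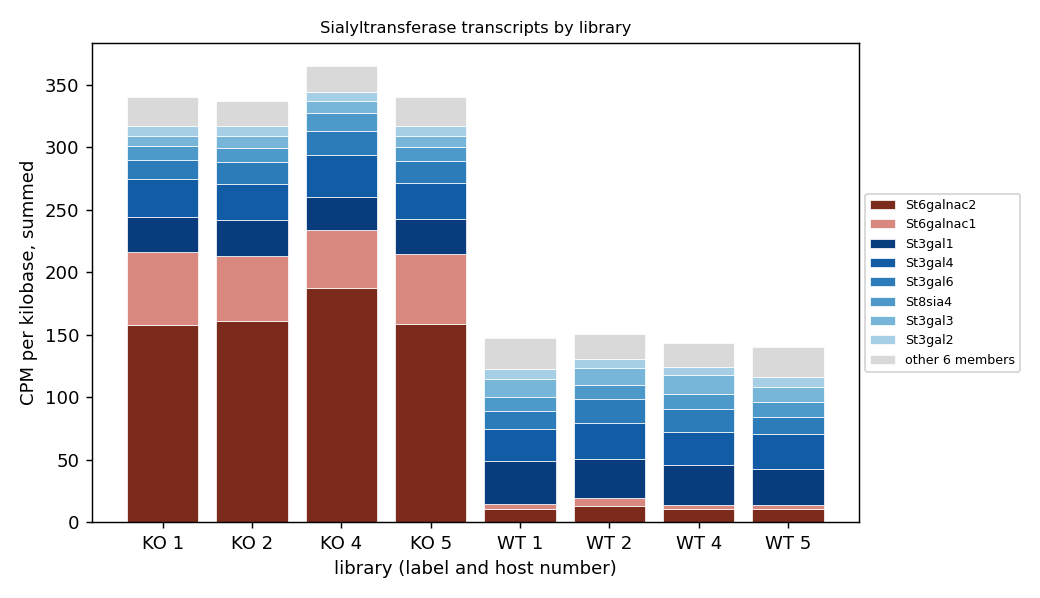
Stacked sialyltransferase levels per library in CPM per kilobase, libraries labelled knock-out on the left. The part of St6galnac1 and St6galnac2 is large in the 4 libraries labelled knock-out and small in the 4 labelled wild type, while the summed height of the other 12 genes is similar.

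The carbohydrate sulphotransferases numbered 6, of which 1 fell, 0 rose and 5 were not called. Chst2 (chr9:95400926-95407270), which sulphates GlcNAc on lactosamine chains and is known for its part in L-selectin ligands, was the gene that fell. It stood at 45.8, 53.2, 48.3 and 53.7 CPM in the libraries labelled knock-out and at 76.9, 78.7, 77.2 and 63.0 CPM in those labelled wild type, without overlap. The log2 fold change was -0.56 ± 0.08 (edgeR adjusted p = 0.00208). Together with St3gal3 it was called in all 18 alternatives, with values between -0.63 and -0.52. Chst11, a chondroitin 4-O-sulphotransferase, had the highest level of the class per kilobase and averaged 249 ± 20.4 CPM in the libraries labelled knock-out and 253 ± 16.2 CPM in those labelled wild type (SD, n = 4 each). Its 95% interval ran from -0.18 to 0.13 on the log2 scale. Chst10, which sulphates the HNK-1 epitope, had a log2 fold change of 0.25 ± 0.09 and Chst14, a dermatan sulphotransferase at about 1 to 2 CPM, one of 0.55 ± 0.23. Chst15, which adds a further sulphate to chondroitin, had -0.61 ± 0.31, and none of these 3 passed the edgeR test (adjusted p = 0.125, 0.190 and 0.274).

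St3gal3 and Chst2 are the enzymes whose fall was called in every fit, so their upstream sequences are shown, 250 bases before a transcription start in RefSeq on GRCm38.p6, each read 5′ to 3′ on the gene's own strand. St3gal3 is at chr4:118134947-118135196 and Chst2 at chr9:95407271-95407520, both on the minus strand. Capitals mark the GC box GGGCGG on either strand (CCGCCC when read on the other).
St3gal3: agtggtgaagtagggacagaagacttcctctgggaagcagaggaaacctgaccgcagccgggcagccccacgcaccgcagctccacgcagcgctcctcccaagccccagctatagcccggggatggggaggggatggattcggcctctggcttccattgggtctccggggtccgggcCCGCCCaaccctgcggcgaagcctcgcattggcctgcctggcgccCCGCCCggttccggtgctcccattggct
Chst2: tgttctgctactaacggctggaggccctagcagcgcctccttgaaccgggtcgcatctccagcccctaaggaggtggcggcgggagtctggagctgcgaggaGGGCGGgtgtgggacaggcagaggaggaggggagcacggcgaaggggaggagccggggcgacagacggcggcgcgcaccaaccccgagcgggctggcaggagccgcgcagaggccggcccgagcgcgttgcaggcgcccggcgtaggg
The St3gal3 window held 2 such boxes and was 68.4% G and C, and the Chst2 window held 1 box and was 72.8% G and C. Neither held the letters TATAAA on either strand. Of the 71 enzymes, 57 had a RefSeq window, 78 windows in all. A GC box was found in 42 of them (53.8%), against 32.7% of all 32817 RefSeq windows, which were not limited to genes of the count table. TATAAA was found in 1 (1.28%), against 12.4% of those 32817 windows. The enzymes were not set against the windows of the tested genes alone, so these differences cannot be assigned to the enzymes. A match describes the letters of the window and nothing more.

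The polypeptide GalNAc transferases, which start the O-glycans that the locus pair caps, numbered 10. One rose, 1 fell and 8 were not called. Galnt6 stood at 122, 114, 151 and 135 CPM in the libraries labelled knock-out and at 185, 165, 164 and 166 CPM in those labelled wild type. All libraries labelled knock-out were below all libraries labelled wild type, and the log2 fold change was -0.38 ± 0.08 (edgeR adjusted p = 0.0172). The call was lost without KO 1 (adjusted p = 0.0522) and was kept in the 17 other alternatives. Galnt7, which prefers peptides that already carry GalNAc, stood at 71.8, 69.3, 71.7 and 65.5 CPM in the libraries labelled knock-out and at 56.2, 59.8, 61.0 and 63.2 CPM in those labelled wild type. Its log2 fold change was 0.21 ± 0.05 (edgeR adjusted p = 0.0274), called in 8 of 18 alternatives, and among the 8 fits that each leave out 1 library it was called without KO 5 and without WT 5. Galnt6 overlaps the antisense gene Galnt6os, and Galnt7 the opposite-strand gene AW046200 and several gene models. Likewise St3gal3 overlaps 9530034E10Rik and Mgat5 overlaps Tmem163 on the opposite strand, and 40 of the 71 enzymes overlap another annotated gene. The kit marked strand, but the sources used here do not say whether the counting used it.

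Galnt2, a broadly expressed initiator, stood at 101, 91.5, 111 and 101 CPM in the libraries labelled knock-out and at 145, 117, 114 and 114 CPM in those labelled wild type. The groups did not overlap, and the log2 fold change of -0.28 ± 0.09 did not pass the edgeR test (adjusted p = 0.0896). Galnt9 had -0.38 ± 0.16 (adjusted p = 0.184 in edgeR). Galnt1, another broadly expressed initiator and the highest of the class per kilobase, averaged 174 ± 6.14 CPM in the libraries labelled knock-out and 166 ± 6.02 CPM in those labelled wild type (SD, n = 4 each), with an interval from -0.02 to 0.17. The median log2 fold change was 0.05 for these initiators and 0.01 for the sialyltransferases. Over all 9 classes it ran from -0.20 for the fucosyltransferases, with 3 genes, to 0.44 for the O-glycan branching enzymes, with 2 genes.

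The O-glycan branching class had 2 measured genes, and neither was called. Gcnt2, which makes the branched I form of polylactosamine, stood at 67.4, 67.2, 61.8 and 61.8 CPM in the libraries labelled knock-out and at 38.5, 57.9, 30.6 and 46.4 CPM in those labelled wild type. The groups did not overlap, and the libraries labelled wild type were spread more widely. The log2 fold change of 0.58 ± 0.16 did not pass the edgeR test (adjusted p = 0.0546), and it was called in 4 of 18 alternatives, DESeq2 and limma-voom among them. Gcnt1, the core 2 enzyme that T cells use to build selectin ligands, was set apart by 1 library. It stood at 20.0, 13.6, 48.1 and 17.5 CPM in the libraries labelled knock-out and at 15.1, 20.1, 18.8 and 26.2 CPM in those labelled wild type, so that KO 4 alone lay above the rest. Its log2 fold change of 0.30 ± 0.36 (edgeR adjusted p = 0.691) was -0.23 without KO 4.

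In the N-glycan branch, 1 of 5 Mgat genes rose and 0 fell. Mgat5 (chr1:127204919-127488334), which adds the branch that carries polylactosamine for galectin binding and restrains T cell receptor signalling in mice, stood at 20.5, 18.2, 20.5 and 18.7 CPM in the libraries labelled knock-out and at 13.2, 14.8, 12.5 and 16.7 CPM in those labelled wild type. No library labelled wild type reached the lowest labelled knock-out. The log2 fold change was 0.45 ± 0.10 (edgeR adjusted p = 0.0159), and it was called in 12 of 18 alternatives. Among the fits that each leave out 1 library, the call was lost without KO 1 and without WT 1. Mgat4a, which adds another outer branch, stood at 47.7, 42.2, 51.4 and 40.8 CPM in the libraries labelled knock-out and at 32.1, 39.6, 35.8 and 40.4 CPM in those labelled wild type. The groups touched at KO 5 and WT 5 without overlapping, and its 0.30 ± 0.09 did not pass the edgeR test (adjusted p = 0.0841). The enzymes that start complex N-glycans, Mgat1 and Mgat2, had -0.09 ± 0.06 and -0.03 ± 0.04, and Mgat4b had -0.03 ± 0.13 (edgeR adjusted p = 0.393, 0.664 and 0.937).

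Of the 9 mannosidases, 1 rose and 0 fell. Man2b1 (chr8:85082730-85098739), the lysosomal alpha-mannosidase that breaks down glycans rather than building them, stood at 201, 206, 219 and 217 CPM in the libraries labelled knock-out and at 181, 187, 189 and 175 CPM in those labelled wild type. The difference was small and without overlap, at 0.20 ± 0.04 on the log2 scale (edgeR adjusted p = 0.0176). Its order among the libraries labelled knock-out, KO 4, KO 5, KO 2 and KO 1 from high to low, is the order of their macrophage and monocyte marker sums. Among the libraries labelled wild type the orders differed. There Man2b1 was highest in WT 4, which had the lowest macrophage and monocyte marker sum (75.3 CPM). The part of those cells in the result was not tested. The call was lost without WT 1, where the log2 fold change was 0.19 (adjusted p = 0.0503). It was also lost without KO 4 and KO 5 and in the fit that takes in the library code, at 0.15 in both (adjusted p = 0.118 and 0.139). A further loss came without KO 2 and KO 4, at 0.18 (edgeR adjusted p = 0.0931), and Man2b1 was called in 14 of 18 alternatives. The Golgi mannosidases that trim N-glycans on the way to complex forms were not called: Man1a had -0.28 ± 0.13, Man1c1 0.36 ± 0.21 and Man2a1 -0.06 ± 0.07 (edgeR adjusted p = 0.220, 0.341 and 0.720). Man2a2 averaged 298 ± 15.3 CPM in the libraries labelled knock-out and 303 ± 24.7 CPM in those labelled wild type (SD, n = 4 each).

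The largest class, 20 enzymes that add galactose, GlcNAc, GalNAc, glucuronic acid or, in the case of B3glct, glucose in beta linkage, held 1 gene that rose, 0 that fell and 19 not called. B3galt5 (chr16:96235801-96319859), a galactosyltransferase that makes type 1 chains, stood at 29.5, 31.1, 38.2 and 29.5 CPM in the libraries labelled knock-out and at 19.3, 24.0, 24.0 and 23.8 CPM in those labelled wild type. All libraries labelled knock-out lay above all labelled wild type, and the log2 fold change was 0.49 ± 0.10 (edgeR adjusted p = 0.0142). It was called in 16 of 18 alternatives and lost the call without KO 2 and KO 4 (adjusted p = 0.0621) and in the fit that takes in the library code (adjusted p = 0.0996). B4galt1, the main galactosyltransferase of lactosamine, stood at 211, 213, 241 and 203 CPM in the libraries labelled knock-out and at 192, 202, 182 and 190 CPM in those labelled wild type. Its groups did not overlap, and 0.18 ± 0.06 did not pass the edgeR test (adjusted p = 0.0907). B4galt3, a further lactosamine galactosyltransferase, had 0.21 ± 0.07 and B4galnt4, which makes LacdiNAc, -0.24 ± 0.09 (edgeR adjusted p = 0.113 and 0.127). In neither gene did the groups overlap. B4galnt4 (chr7:141060978-141072400) lies near Nlrp6 (chr7:140920902-140929192), and the part of this position in its difference was not tested.

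B4galnt1, the GM2 ganglioside synthase, had the highest level per kilobase of all 71 enzymes, at 132 CPM per kilobase. It averaged 474 ± 35.7 CPM in the libraries labelled knock-out and 462 ± 14.1 CPM in those labelled wild type (SD, n = 4 each), with a 95% interval of the log2 fold change from -0.09 to 0.17. B3gnt2, which extends polylactosamine, had 182 ± 9.19 CPM and 178 ± 8.23 CPM under the same labels, with an interval from -0.08 to 0.15. For both, a difference of the size seen at the locus lies far outside the interval. The enzymes of the glycosaminoglycan linker in this class, B4galt7, B3galt6 and B3gat3, had log2 fold changes of 0.17 ± 0.08, -0.01 ± 0.09 and -0.06 ± 0.07, and none was called.

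**Figure D4:**
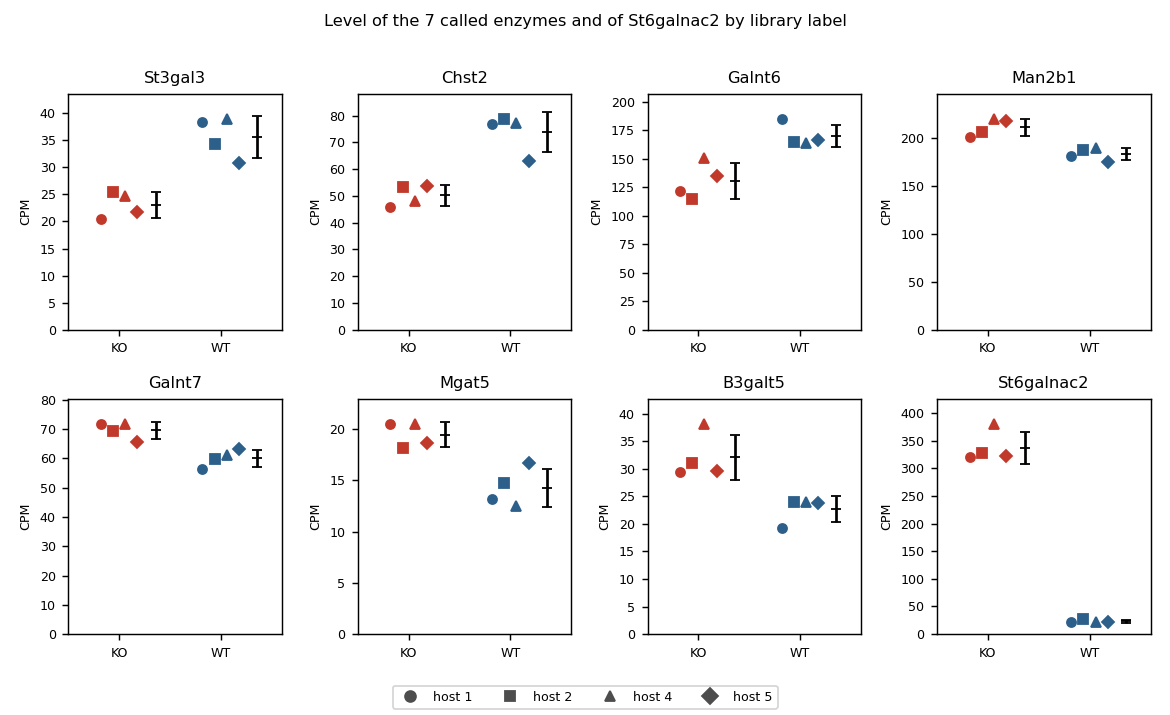
Level in CPM of the 7 called enzymes and of St6galnac2 in each library, with the mean and SD of each group (n = 4). Libraries labelled knock-out are left of those labelled wild type. St3gal3, Chst2 and Galnt6 are lower and B3galt5, Mgat5, Galnt7 and Man2b1 higher in the libraries labelled knock-out, and in none of the 7 do the groups overlap.

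None of the 3 fucosyltransferases and none of the 4 Ext genes was called. Fut8, the core fucosyltransferase of N-glycans, stood at 44.4, 48.6, 47.8 and 52.5 CPM in the libraries labelled knock-out and at 57.3, 56.9, 51.1 and 57.0 CPM in those labelled wild type. Only KO 5 and WT 4 made the groups overlap, and -0.20 ± 0.06 did not pass the edgeR test (adjusted p = 0.0764). Fut7, which completes sialyl Lewis x on T cells, was low at 2.10 ± 0.534 CPM in the libraries labelled knock-out and 2.56 ± 0.477 CPM in those labelled wild type (SD, n = 4 each). Its 95% interval, from -0.77 to 0.20, leaves room for a moderate difference. Fut11 had -0.004 ± 0.10. The heparan sulphate polymerase subunits Ext1 and Ext2 had 0.04 ± 0.12 and -0.02 ± 0.06, and Extl3, which starts the heparan chain, had -0.02 ± 0.03 with an interval from -0.10 to 0.05. Extl2, at 3.13 ± 0.347 CPM and 2.67 ± 0.212 CPM under the same labels, had 0.23 ± 0.14 (edgeR adjusted p = 0.375).

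Some enzymes varied widely among libraries of a label. Over the 71 enzymes the median coefficient of variation was 9.42% among the libraries labelled knock-out and 9.92% among those labelled wild type, and it reached 83.2% for B4galnt2 under the knock-out label. B4galnt2, a GalNAc transferase of the Sd(a) antigen, stood at 2.92, 0.866, 5.98 and 1.34 CPM in the libraries labelled knock-out and at 1.05, 0.994, 0.481 and 1.72 CPM in those labelled wild type. KO 1 and KO 4 were high and the other libraries were not, and the log2 fold change of 1.38 ± 0.59 did not pass the edgeR test (adjusted p = 0.199). St6gal1, which adds alpha-2,6-linked sialic acid to N-glycans, stood at 6.21, 2.32, 3.43 and 4.08 CPM in the libraries labelled knock-out and at 9.55, 4.00, 3.39 and 8.59 CPM in those labelled wild type. Under either label the libraries of hosts 1 and 5 were the highest. The summed stromal and endothelial markers were also highest in these hosts, at 251, 155, 130 and 206 CPM in KO 1, KO 2, KO 4 and KO 5 and 197, 136, 124 and 188 CPM in WT 1, WT 2, WT 4 and WT 5, and their part in St6gal1 was not tested. Its log2 fold change of -0.67 ± 0.39 had an interval from -1.54 to 0.21 (edgeR adjusted p = 0.353).

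B3galt2, a galactosyltransferase of type 1 chains, was highest in host 5 under either label. It stood at 15.6, 11.6, 11.9 and 29.4 CPM in the libraries labelled knock-out and at 14.5, 15.7, 12.9 and 27.1 CPM in those labelled wild type. St3gal5, the GM3 ganglioside synthase, stood at 1.35, 2.24, 1.85 and 3.15 CPM in the libraries labelled knock-out and at 2.13, 0.790, 1.04 and 1.98 CPM in those labelled wild type. The groups overlap widely in both genes. Galnt3, a further O-glycan initiator, reached 16.1 CPM in KO 4, with 7.22 to 8.80 CPM in KO 1, KO 2 and KO 5 and 4.09 to 9.47 CPM in those labelled wild type. Its log2 fold change of 0.73 ± 0.32, with an interval from 0.01 to 1.46, did not pass the edgeR test (adjusted p = 0.209).

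**Figure D5:**
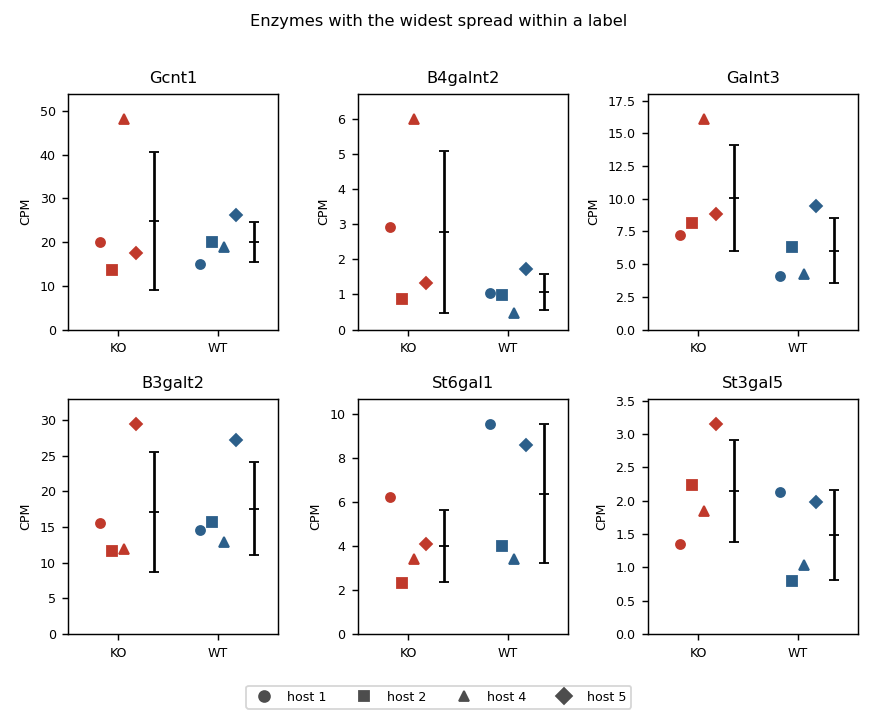
Level in CPM of enzymes with a large spread among libraries of a label, each library marked by its host number, with mean and SD bars (n = 4) and libraries labelled knock-out on the left. St6gal1 is highest in hosts 1 and 5 and B3galt2 in host 5 under either label, and Gcnt1 and Galnt3 are highest in KO 4.

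St6galnac2 (chr11:116676703-116695782) and St6galnac1 (chr11:116765025-116775507) lie side by side, and 6 of the 71 enzymes are on the same chromosome. None of these 6 was called. The nearest, B3gntl1, a member of the beta-1,3-N-acetylglucosaminyltransferase-like family, lies 4.84 Mb away and differed by -0.14 ± 0.06 on the log2 scale (edgeR adjusted p = 0.200). B4galnt2 lies 20.8 Mb away, with the values above. Galnt10 (58.9 Mb) had 0.30 ± 0.13, Mgat4b (66.4 Mb) -0.03 ± 0.13, Mgat1 (67.4 Mb) -0.09 ± 0.06 and B3gnt2 (93.8 Mb) 0.04 ± 0.05. The 7 called enzymes lie on chromosomes 1, 4, 8, 9, 15 and 16.

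Genes that supply or serve the enzymes were read from 7 lists with 133 measured genes, of which Fut8 alone matches the symbol rule. Of the 133, 8 rose (6.02%, against 6.20% of all genes) and 4 fell (3.01%, against 3.84%), shares near the background, and the counts of single lists rest on few genes. Of 10 genes of sialic acid supply and removal, 2 fell and 0 rose. Siae, which removes acetyl groups from sialic acid, stood at 11.02, 11.2, 10.2 and 10.8 CPM in the libraries labelled knock-out and at 15.9, 13.9, 14.4 and 13.9 CPM in those labelled wild type, which differ by -0.43 ± 0.07 on the log2 scale (edgeR adjusted p = 0.00435). Nanp, the phosphatase of sialic acid synthesis, had -0.51 ± 0.11 (adjusted p = 0.0144). Neither group pair overlapped. Gne, the enzyme that starts sialic acid synthesis, had -0.01 ± 0.07, Cmas, which activates sialic acid, 0.10 ± 0.05, and Slc35a1, which carries it into the Golgi, -0.12 ± 0.10, and none of these was called (edgeR adjusted p = 0.937, 0.204 and 0.549). Neu1, the lysosomal sialidase, had 0.28 ± 0.09 and Neu3, the plasma membrane sialidase, -0.33 ± 0.14, without calls.

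Of 13 genes for core 1 O-glycans and O-linked fucose, mannose and glucose, none was called by edgeR. C1galt1, which makes core 1 from the product of the Galnt enzymes, had a log2 fold change of -0.04 ± 0.05, and its chaperone C1galt1c1 0.08 ± 0.06. Of 32 genes of nucleotide sugar synthesis and transport, again none was called, and Papss1, which makes the sulphate donor of the Chst enzymes, came nearest with -0.20 ± 0.06 (edgeR adjusted p = 0.0511). Of 26 genes of the N-glycan precursor and its transfer, 1 rose: Stt3a, a catalytic subunit of oligosaccharyltransferase, with 0.16 ± 0.03 (edgeR adjusted p = 0.0161). The medians of these 3 lists were -0.03, -0.004 and -0.003, beside -0.003 over all genes.

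Of 17 genes for the proteoglycan linker and heparan sulphate, 2 rose and 0 fell. Dse, a dermatan sulphate epimerase, stood at 19.1, 19.7, 22.7 and 20.1 CPM in the libraries labelled knock-out and at 12.7, 11.01, 14.9 and 13.4 CPM in those labelled wild type, which differ by 0.65 ± 0.10 on the log2 scale (edgeR adjusted p = 0.00229). Hpse, the heparanase that cuts heparan sulphate, had 0.99 ± 0.23 (adjusted p = 0.0224). Of 26 lysosomal glycosidases and sulphatases, 2 rose and 1 fell: Gaa, the acid glucosidase, had 0.39 ± 0.10, Psap, the precursor of the saposins, 0.27 ± 0.07, and Sgsh, a heparan sulphatase, -0.27 ± 0.07 (edgeR adjusted p = 0.0324, 0.0338 and 0.0449). In the 8 fits that each leave out 1 library, Hpse kept its call in 5, Gaa in 3, Psap in 1 and Sgsh in 1. Psap stood at 549, 602, 675 and 632 CPM in KO 1, KO 2, KO 4 and KO 5, the order of their macrophage and monocyte marker sums, against 530, 536, 482 and 496 CPM in WT 1, WT 2, WT 4 and WT 5. The part of those cells in it was not tested.

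Of 10 genes that carry or read sialylated glycans, 3 rose and 1 fell, where 10.0% of all genes were called. Spn, which encodes the T cell mucin CD43, a main carrier of O-glycans, fell to 793, 788, 770 and 762 CPM in the libraries labelled knock-out, against 986, 928, 944 and 886 CPM in those labelled wild type (log2 fold change -0.27 ± 0.04, edgeR adjusted p = 0.00354). The 13 T cell identity genes had a median log2 fold change of -0.10, with 2 called lower and 0 higher. The part of the T cell share of each library in the fall of Spn was not tested. Siglec1 and Siglece, sialic acid receptors known from macrophages and other myeloid cells, rose with log2 fold changes of 4.01 ± 0.53 and 1.49 ± 0.27 (adjusted p = 0.00123 and 0.00683). Both rank KO 4, KO 5, KO 2 and KO 1 from high to low, the order of the macrophage and monocyte marker sums, whose part in them was not tested. Selp, known from platelets and endothelium, rose by 1.40 ± 0.38 on the log2 scale (adjusted p = 0.0495), with groups that overlap and a call in 3 of the 8 fits that each leave out 1 library.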

How the data were processed

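The deposited table holds whole-number read counts per gene for 8 libraries, with Entrez identifiers, symbols and gene lengths. Per the labels' protocols, stranded TruSeq libraries of poly(A) RNA were sequenced on an Illumina NextSeq, in single reads 81 bases long. Alignment with STAR to mm10 is named in the submitters' processing notes; the STAR version and the counting tool, with its annotation and its use of strand, are not stated there and were not given in the sources used here. Without the strand setting, reads of a gene and an overlapping or antisense gene cannot be told apart. Groups follow the labels' statement of the transferred cells.

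Counts were scaled with TMM factors and tested in edgeR 4.0.16 (R 4.3.3) with estimateDisp, glmQLFit and glmQLFTest on the group alone, over all 11354 genes, all of which filterByExpr kept. Adjusted p is Benjamini-Hochberg over all genes, called below 0.05. Standard errors are the size of the log2 fold change over the root of F. The common biological coefficient of variation was 0.116. The steps were tested on simulated counts. By the labels, each library of a label came from its own host, while a mouse shared between labels is not stated. The p-values reflect only library-to-library spread, whose technical part was not measured. Libraries of a label differed by more than counting noise (chi-square per degree of freedom 13.5 to 43.3). Alternatives used DESeq2 1.42.0, RLE or unscaled library sizes, a minimum of 1 CPM in 4 libraries or no minimum, limma 3.58.1 (voom with quality weights), the host number or the library code as a term, and fewer libraries. The host number was not taken to pair the libraries in the main fit, since a shared mouse is not stated. Same-numbered libraries deviated together (correlation over 0.1) for 2 of 4 numbers, and such correlations cannot decide whether a mouse was shared.

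All 71 enzymes were matched to RefSeq's GRCm38 gene table for positions, and overlaps come from GENCODE vM21. Genes named are Nlrp6, the locus pair, every called enzyme, the 4 enzymes per class and 4 genes per related list with the smallest p, the highest enzyme per class and kilobase, those on chromosome 11, and a fixed set of sialic acid and core 1 genes. St3gal5, Galnt3, B3galt2, B3gnt5, B3glct, Man2a2, St6galnac3, St6galnac4, St6galnac6, St3gal6 and the linker enzymes were named after their values were seen. The enzymes, lists and tests were chosen with earlier results of these data known.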

Additional observations from a re-analysis of the deposited data

Results flagged for a closer look

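In 11 of 142 groups of 4 libraries (71 enzymes under 2 labels), 1 library stood apart from the other 3 by Dixon's gap ratio (the gap to the nearest library over the whole range, past its 95% limit). Chance gives about 7.1 such groups. Among the libraries labelled knock-out, KO 4 was the high one in each of the 4 cases: 78.0 CPM of Man1a against 58.9 to 61.8 CPM in the other 3 (ratio 0.846), 229 CPM of Man2a1 against 183 to 191 CPM (0.833), 121 CPM of St8sia4 against 90.4 to 94.9 CPM (0.851) and 30.3 CPM of B4galt3 against 25.6 to 26.3 CPM (0.848). KO 4 had the highest macrophage and monocyte marker sum and the lowest total count. Among the libraries labelled wild type, WT 1 was high for Galnt2 (145 CPM against 114 to 117 CPM, ratio 0.897), Galnt6 (185 CPM against 164 to 166 CPM, 0.907), B4galnt4 (137 CPM against 119 to 120 CPM, 0.948) and B3gat3 (41.8 CPM against 35.3 to 35.7 CPM, 0.926). WT 1 was low for B3galt5 (19.3 CPM against 23.8 to 24.0 CPM, 0.947). WT 4 was low for Fut8 (51.1 CPM against 56.9 to 57.3 CPM, 0.941), and WT 5 for Chst2 (63.0 CPM against 76.9 to 78.7 CPM, 0.885).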

How the results depend on the processing

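The number of enzymes called was 7 (4 higher, 3 lower) in the libraries labelled knock-out. It was 13 with DESeq2 (7 higher, 6 lower), while limma-voom gave 5 lower; the causes were not tested. With the library code as a term it was 3, with 0 higher, and all genes gave 745 calls (249 lower) in place of 1140 (436 lower). It was 4, with 1 higher, without KO 2 and KO 4, and also without KO 4 and KO 5, fits with fewer libraries; the last was chosen after seeing the data. The related lists, with 12 calls (8 higher) among 133 genes (9.02%), gave 20 (14 higher) with DESeq2, where 13.9% of all genes were called. With the code they gave 7 (4 higher), where 6.56% of all genes were called. They gave 6 (3 higher) without KO 2 and KO 4 and 4 higher without KO 4 and KO 5. In these 2 fits 7.27% and 8.01% of all genes were called in either direction. Leaving out 1 library at a time gave 4 to 9 enzymes (1 to 5 higher, 2 to 4 lower), 804 to 1197 genes (516 to 709 higher, 276 to 509 lower) and 8 to 12 related genes (5 to 8 higher, 3 to 4 lower). The replicate block on the host number gave 7 enzymes (3 higher, 4 lower; 5 shared with the fit without it) and 1020 genes, 8.98% of those tested. It lost Mgat5 and Galnt7. Whether a host number marks the same mouse under both labels is not stated. Same-number deviations correlated at -0.060, 0.182, -0.138 and 0.256 for hosts 1, 2, 4 and 5. KO 5 and WT 5 were each other's best match, and KO 2 was the best match of WT 2 but not the reverse. RLE factors, total library size and both filters kept the same 7 enzymes. No direction of a called enzyme reversed. Enzymes near 1 CPM, such as Chst15 and B4galnt2, have intervals too wide to exclude a 2-fold difference.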
